A study of Homo sapiens with 18 samples.

Results

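The enzymes described here remove superoxide and peroxides. They are the superoxide dismutases SOD1, SOD2 and SOD3, catalase (CAT), the glutathione peroxidase family members GPX1, GPX3, GPX7 and GPX8, and the peroxiredoxins PRDX3 and PRDX5. The 10 genes were taken from the deposited expression values by symbol. A probe set counted only if it was paired with exactly 1 gene symbol of any kind, and each of these genes had 1 such probe set. They stand among 15529 named genes on 18 arrays. The set was chosen because IL4I1, the enzyme expressed in these cells, releases hydrogen peroxide. Earlier results of these data were known when it was chosen.

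Superoxide is formed by leakage of electrons in mitochondria and by dedicated oxidases, and superoxide dismutases turn it into hydrogen peroxide and oxygen. Hydrogen peroxide is then split by catalase in peroxisomes, or reduced to water by glutathione peroxidases and peroxiredoxins in the cytosol, the mitochondria, the endoplasmic reticulum and outside the cell. Catalase needs no reductant, whereas the classical glutathione peroxidases draw on glutathione and the peroxiredoxins mostly on thioredoxin. SOD2 is a textbook target of the transcription factor NF-kB, and many genes of the thioredoxin and glutathione systems are targets of NRF2 (gene NFE2L2).

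All samples were U-87MG, an established human glioblastoma line, and RNA was taken after 120 hours of culture. The cells were stable lentiviral lines that differed in the expression vector and in the hairpin. The vector was pLX301, either empty or carrying human IL4I1 complementary DNA, and puromycin was used for selection. The hairpin was shCtrl, a non-targeting control, or shAHR1 or shAHR2 against the aryl hydrocarbon receptor AHR, a ligand-activated transcription factor. Each of the 6 combinations had 3 arrays, which the labels call biological replicates and the design text independent experiments. The labels do not state how many infections or clones stand behind a line, so the p-values measure the spread between these arrays. The question was how expression changed with IL4I1 and with knockdown of AHR.

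Array medians ran from 6.46 to 6.53 on the log2 scale, correlations between arrays from 0.865 to 0.954, and 0 pairs of arrays were identical. In the control group (shCtrl, empty vector) replicate 2 was the most variable, with an interquartile range of relative log expression of 0.529 against 0.319 to 0.472 on the others. IL4I1 read 5.27 to 6.43 on the arrays with empty vector and 12.67 to 13.01 on those with the IL4I1 vector. AHR read 9.84 to 10.33 on the shCtrl arrays and 7.45 to 8.16 on the hairpin arrays. Of 12 glial and glioma markers 9 were measured. VIM (12.00 to 12.43), CD44 (10.65 to 11.41), TNC and CHI3L1 were bright on every array. GFAP, the defining astrocyte marker, read 5.63 to 6.88, around the array medians, and the files give no detection call for it. NES (5.67 to 6.51), OLIG2 (4.77 to 6.65) and AQP4 (4.54 to 6.78) lay around or below the array medians. With IL4I1 the glial glutamate transporter SLC1A3 fell in every background (averaged change −1.01, limma adjusted p = 2.98e-05). OLIG2 rose on average (0.61, adjusted p = 0.0483), and GFAP fell in shCtrl cells (change −0.74, adjusted p = 0.0418). Among 6 epithelial or embryonic kidney, 3 leukocyte and 3 endothelial markers measured, 0 were called with IL4I1 averaged over the hairpins. In shCtrl cells the leukocyte marker ITGAM rose with IL4I1 (1.20, adjusted p = 0.0322). The part of these marker changes in the results that follow was not tested. The arrays measure bulk RNA, in which fewer cells of a type and less RNA per cell cannot be told apart.

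The start regions of the genes with the clearest pattern, SOD2 and CAT, are shown first. Genes and targets of NF-kB and NRF2 are described beside their values further on, and no list of AHR targets was read. The windows come from RefSeq (build GRCh38.p14) and run from 250 bases before to 50 bases after an annotated start, 5′ to 3′ on the gene's strand. Capitals mark matches on either strand to the AHR core GCGTG, to TGACNNNGC (antioxidant response element) and to the kB site (GGG, any 5 bases, CC). Overlapping matches are joined in 1 run of capitals. SOD2 lies on chromosome 6 and had 4 windows, of which the one with the lowest coordinates is shown, chr6:159693192-159693491 on the minus strand. CAT lies on chromosome 11, with the window chr11:34438684-34438983 on the plus strand.

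SOD2: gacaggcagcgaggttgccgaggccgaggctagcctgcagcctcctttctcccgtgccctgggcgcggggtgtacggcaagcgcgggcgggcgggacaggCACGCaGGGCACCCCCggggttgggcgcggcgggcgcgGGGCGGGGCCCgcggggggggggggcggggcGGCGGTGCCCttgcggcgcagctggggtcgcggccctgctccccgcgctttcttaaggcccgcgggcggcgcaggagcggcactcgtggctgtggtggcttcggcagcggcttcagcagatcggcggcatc

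CAT: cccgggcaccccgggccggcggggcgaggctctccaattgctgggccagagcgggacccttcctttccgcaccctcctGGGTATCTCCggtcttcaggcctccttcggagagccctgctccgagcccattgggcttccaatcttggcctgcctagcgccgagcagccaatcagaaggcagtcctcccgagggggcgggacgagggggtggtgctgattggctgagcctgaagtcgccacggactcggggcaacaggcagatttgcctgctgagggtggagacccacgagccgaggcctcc

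The SOD2 window shown held 1 AHR core match, kB matches at 4 places and 0 matches to the antioxidant motif. The kB matches overlapped stretches of G and C. The CAT window held 0 AHR core matches and 1 kB match, GGGTATCTCC, at position −172 from the start. RefSeq windows were matched by symbol and filtered by chromosome, and those kept lay on the gene's own chromosome. They covered 9 of the 10 genes, all but SOD1, and numbered 13 in all. Of these, 7 held the AHR core, 10 held a kB match and 0 held the antioxidant motif. The windows are not independent, as SOD2 has 4 of them and the PRDX5 windows overlap each other. Counted by gene, 4 of 9 held the AHR core and 6 of 9 a kB match. Over all 35116 human windows of that length, with no filter, the shares of windows were 36.5%, 58.7% and 13.3%. The share of G and C ran from 43.0% to 78.3% in the member windows, against a median of 58.7% over all windows. These matches describe letters in a window and say nothing on binding.

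SOD2, the manganese superoxide dismutase of the mitochondrial matrix, was the only one of the 10 genes that passed the test in any comparison. Without IL4I1 it read 11.01, 10.86 and 10.80 (log2, replicates 1 to 3) in shCtrl cells. In shCtrl cells with IL4I1 it read 11.37, 11.34 and 11.49, so that each of these arrays lay above each control array. In shAHR1 cells the values were 11.17, 11.44 and 11.29 without IL4I1 and 11.62, 11.43 and 11.64 with it, with an overlap through replicate 2 of both groups. In shAHR2 cells they were 11.29, 11.12 and 11.18 without IL4I1 and 11.62, 11.65 and 11.67 with it, with no overlap.

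The order of the SOD2 group means began with shCtrl cells without IL4I1 at 10.89 ± 0.11 (SD, n = 3). Then came the cells with a hairpin alone, at 11.20 ± 0.08 for shAHR2 and 11.30 ± 0.14 for shAHR1. The IL4I1 cells followed at 11.40 ± 0.08 with shCtrl, 11.56 ± 0.11 with shAHR1 and 11.65 ± 0.03 with shAHR2. Only the lowest group was clear of its neighbour. The arrays of every other pair of neighbours overlapped.

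**Figure D1:**
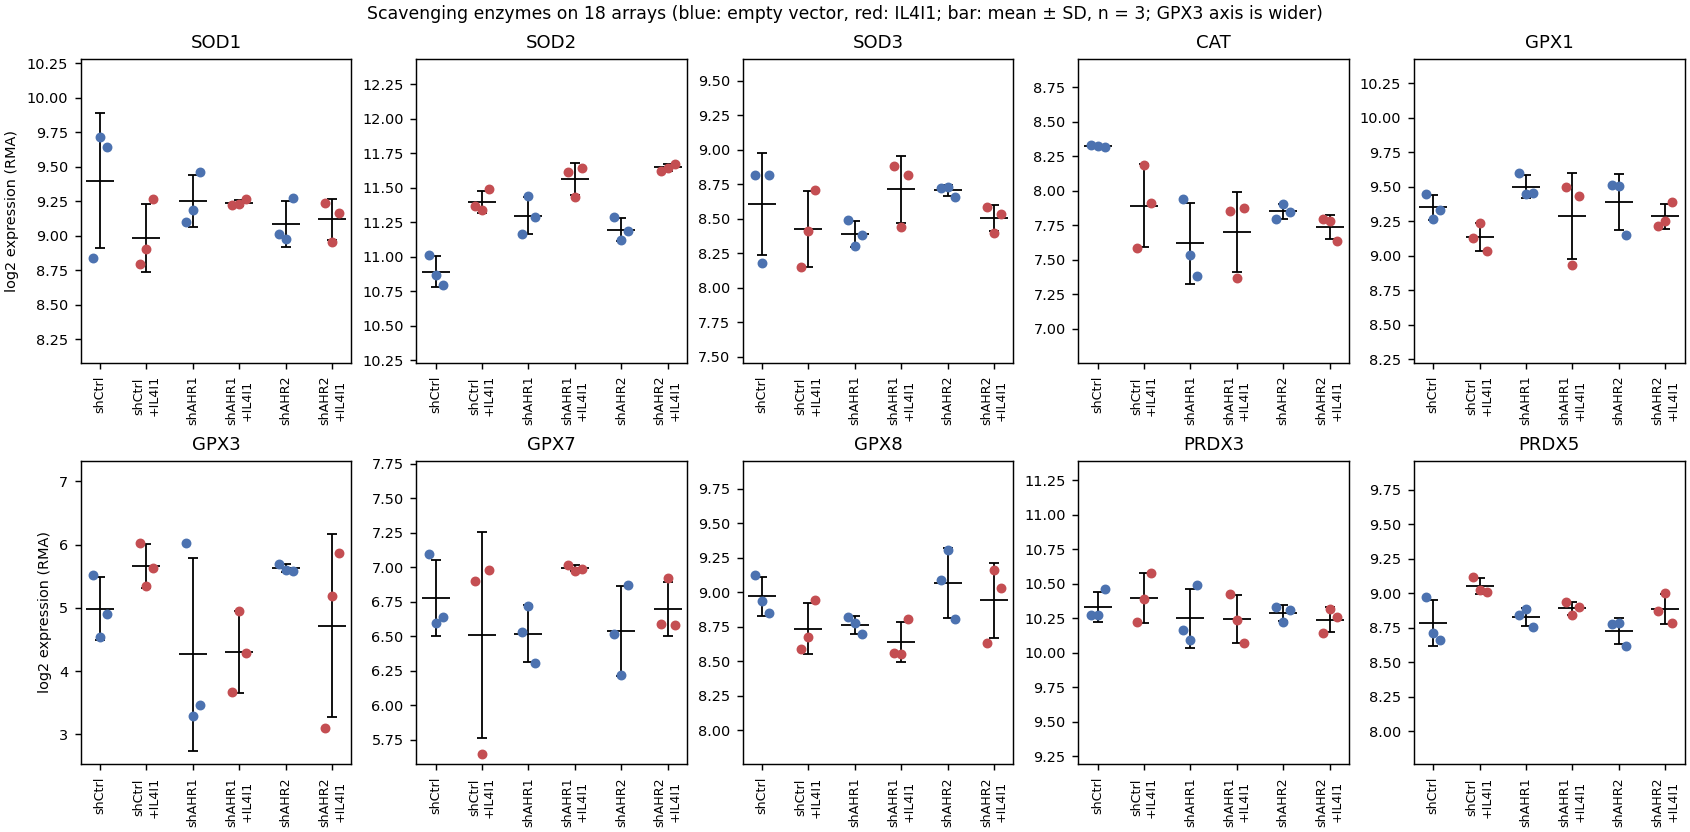
Log2 expression (vertical axis) of the 10 scavenging enzymes on each of the 18 arrays, by group (horizontal axis), with blue points for empty vector and red points for IL4I1 and bars for the mean ± SD (n = 3). SOD2 is lowest, at 10.80 to 11.01, and CAT highest, at 8.32 to 8.33, in shCtrl cells without IL4I1, and GPX3 has a wider axis because its arrays run from 3.09 to 6.03.

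With IL4I1, SOD2 rose in shCtrl cells by 0.50 ± 0.13 (SE) on the log2 scale, a 1.42-fold difference (95% interval 0.24 to 0.77, limma adjusted p = 0.0322). It was 1 of 10 members called there, where 4.58% of all genes were called. This call was lost when any of 5 of the 6 arrays compared was left out (adjusted p 0.0654 to 0.111), and it was kept without replicate 1 of the control. The SOD2 difference was 0.27 in shAHR1 cells (adjusted p = 0.376), with 0 members and 1.31% of genes called. In shAHR2 cells it was 0.45 (adjusted p = 0.116), with 0 members and 0.612% of genes called. Averaged over the 3 hairpin backgrounds, SOD2 rose by 0.41 ± 0.07, or 1.33-fold (95% interval 0.25 to 0.56, adjusted p = 0.00122). Here again 1 of 10 members was called, against 12.6% of all genes (5.36% higher and 7.21% lower). That call was kept in each of 18 fits that left out 1 array.

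The effect of IL4I1 on SOD2 was not shown to differ between hairpins. The difference between the mean effect in both AHR hairpin lines and the effect in shCtrl cells was −0.15, with a 95% interval from −0.47 to 0.18 (limma adjusted p = 0.982). Among members, 0 had a called interaction with shAHR1, with shAHR2 or with their mean, and among all genes the called shares were 0%, 0.0129% and 0.0193%. The interval leaves room for an effect of IL4I1 that is smaller or larger with the AHR hairpins than with shCtrl.

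The hairpins alone were compared with shCtrl cells next. SOD2 read higher than on every control array on all 3 arrays of each hairpin, by 0.40 under shAHR1 (adjusted p = 0.2) and 0.30 under shAHR2 (adjusted p = 0.363). Neither passed the test, and 0 members were called in either comparison, against 0.406% and 0.734% of all genes. In cells with IL4I1 the hairpin differences of SOD2 were 0.17 and 0.25 (adjusted p = 0.669 and 0.481), with 0 members called against 1.55% and 1.26% of genes. shAHR2 and shAHR1 averaged over both vectors differed in SOD2 by −0.01 (adjusted p = 0.987), with 0 members called against 0.477% of genes.

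The study's design text sets IL4I1 cells with an AHR hairpin against shCtrl cells without IL4I1. In that comparison SOD2 rose by 0.67 ± 0.13 with shAHR1, or 1.59-fold (adjusted p = 0.00744), and by 0.75 ± 0.13 with shAHR2, or 1.69-fold (adjusted p = 0.0041). It was the 1 member called in each, where 4.53% and 3.35% of genes were called. The contrasts against shCtrl cells without IL4I1 share those 3 control arrays and are not independent of each other.

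CAT, which splits hydrogen peroxide in peroxisomes, ran the other way in its values but passed no test. The shCtrl cells without IL4I1 read 8.33, 8.32 and 8.32, the smallest spread of any member in any group (SD 0.01). With IL4I1 they read 7.58, 8.19 and 7.91. The shAHR1 cells read 7.94, 7.53 and 7.38 without IL4I1 and 7.85, 7.37 and 7.88 with it. The shAHR2 cells read 7.80, 7.91 and 7.84 without it and 7.80, 7.78 and 7.64 with it. All 15 arrays of the other groups thus lay below the 3 controls.

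For SOD2 all 15 other arrays lay above the 3 controls. Of the 10 members, SOD2 and CAT were those whose control arrays were clear of all others, and 1.06% of all genes were so placed. This comparison was added after the values were seen, so the share is no test of these genes. In CAT the difference with IL4I1 was −0.43 in shCtrl cells (95% interval −0.82 to −0.04, limma adjusted p = 0.209). Under the hairpins alone it was −0.70 for shAHR1 (95% interval −1.09 to −0.32, adjusted p = 0.111) and −0.47 for shAHR2 (adjusted p = 0.322). In cells with IL4I1 the hairpin differences were −0.19 and −0.15 (adjusted p = 0.761 and 0.857). Averaged over hairpins, the IL4I1 difference of CAT was −0.15 (95% interval −0.38 to 0.07, adjusted p = 0.4). For IL4I1 with shAHR1 against shCtrl without IL4I1 it was −0.62 (adjusted p = 0.0658), which passed at 0.0483 when dim genes were left out and at 0.0385 with trend and robust priors.

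**Figure D2:**
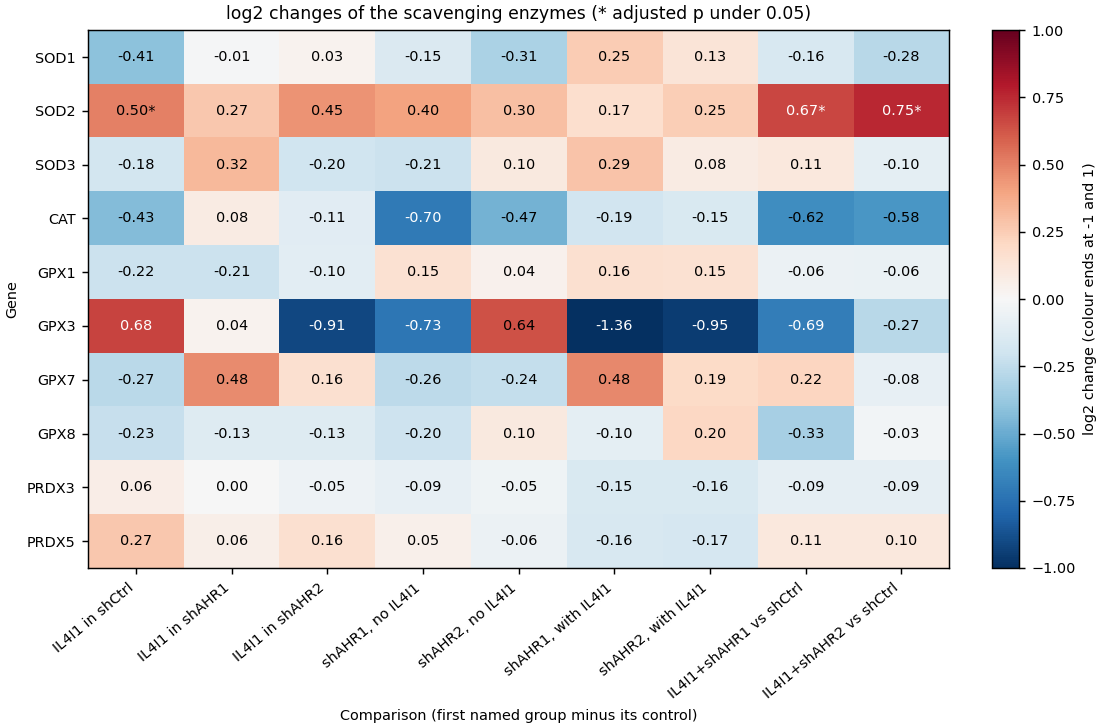
Log2 change of each member (vertical axis) in 9 comparisons (horizontal axis), coloured from blue (lower) to red (higher) with the colour ending at −1 and 1, and a star for a limma adjusted p under 0.05. SOD2 carries the only stars (0.50, 0.67 and 0.75) and CAT its lowest value under shAHR1 without IL4I1 (−0.70).

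The other superoxide dismutases did not pass the test. SOD1, the copper and zinc enzyme of the cytosol, read 8.84, 9.72 and 9.64 in shCtrl cells and 8.79, 8.90 and 9.26 with IL4I1, and the groups overlapped because replicate 1 of the control was low. The difference was −0.41 ± 0.21 (adjusted p = 0.302). Without that control array it was −0.69 (adjusted p = 0.0267). In the other backgrounds the IL4I1 difference of SOD1 was −0.01 and 0.03. SOD3, the secreted form, had group means between 8.39 and 8.71, and its averaged IL4I1 difference was −0.02 (95% interval −0.25 to 0.21, adjusted p = 0.938).

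The glutathione peroxidases varied within groups as much as between them. GPX1, the cytosolic and mitochondrial enzyme, read 9.45, 9.27 and 9.33 in shCtrl cells and 9.13, 9.24 and 9.03 with IL4I1. Those groups did not overlap, yet the difference of −0.22 did not pass the test (adjusted p = 0.507), and averaged over hairpins it was −0.18 (95% interval −0.37 to 0.02, adjusted p = 0.241). GPX8, a membrane protein of the endoplasmic reticulum, differed by −0.16 on average (adjusted p = 0.331). GPX7, of the same compartment, read 6.53, 6.72 and 6.30 in shAHR1 cells and 7.02, 6.97 and 6.99 with IL4I1, a difference of 0.48 with no overlap (adjusted p = 0.534). In shCtrl cells the GPX7 difference was −0.27. GPX3, the plasma enzyme, was dim, and no size is given for its differences. Its mean over the arrays was 4.93, under the lower quartile of all probe sets (5.72), and the SD within a group reached 1.53.

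The mitochondrial peroxiredoxin PRDX3 was the steadiest in its group means, which ran from 10.24 to 10.40, and its averaged IL4I1 difference was 0.00 (95% interval −0.18 to 0.18). PRDX5, found in mitochondria, peroxisomes and the cytosol, read 8.97, 8.71 and 8.66 in shCtrl cells and 9.12, 9.03 and 9.01 with IL4I1. Each IL4I1 array lay above each control array, and the difference was 0.27 (95% interval 0.00 to 0.53, adjusted p = 0.26). Averaged over hairpins it was 0.16 (95% interval 0.01 to 0.32, adjusted p = 0.165), which did not pass.

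**Figure D3:**
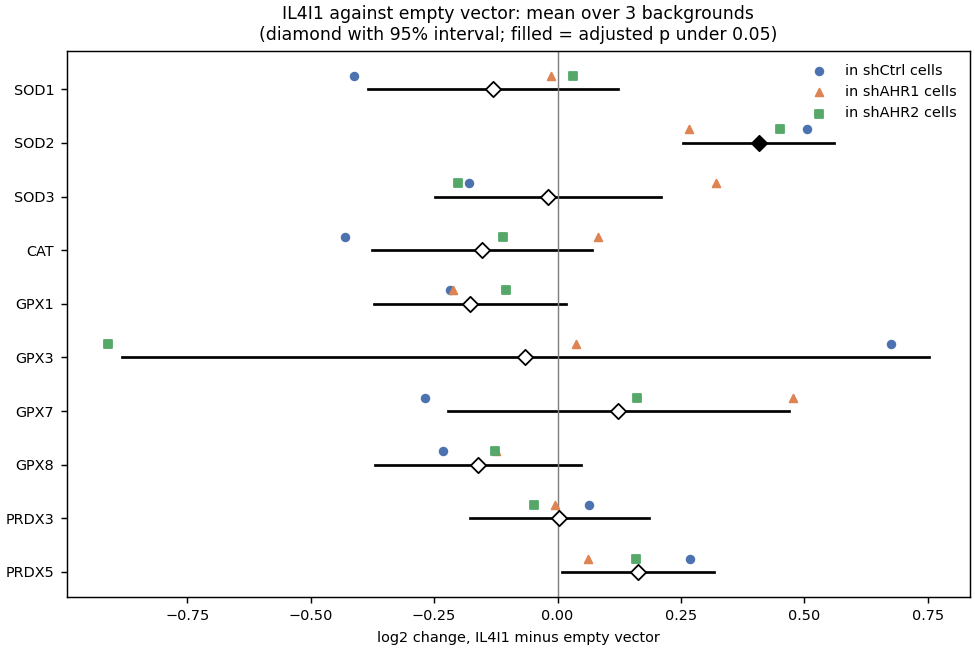
Log2 change with IL4I1 (horizontal axis) of each member (vertical axis), with coloured points for each hairpin background and diamonds for their mean with its 95% interval. The SOD2 interval, 0.25 to 0.56, and the PRDX5 interval, 0.01 to 0.32, exclude 0, and only SOD2, the filled diamond, passed the adjusted test.

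Members whose 2 groups of arrays did not overlap were counted next. With IL4I1 there were 4 in shCtrl cells (CAT, SOD2, GPX1 and PRDX5), against 20.3% of all genes. In shAHR1 cells there was 1 (GPX7), against 18.1%, and in shAHR2 cells there were 4 (SOD2, CAT, SOD3 and PRDX5), against 18.8%. Over all backgrounds together 0 members were clear, against 1.73% of genes. Under shAHR1 alone there were 3 (CAT, SOD2 and GPX8), against 14.1%, and under shAHR2 alone 3 (CAT, SOD2 and GPX3), against 14.2%. The median member change with IL4I1 averaged over hairpins was −0.04, against 0.01 over all genes. In the single backgrounds it was −0.20, 0.05 and −0.08 for shCtrl, shAHR1 and shAHR2, against 0.02, −0.02 and 0.01 over all genes.

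Genes around the scavengers were read as averages of the IL4I1 change over the 3 hairpins, where 5.36% of all genes rose and 7.21% fell. The lists were chosen with earlier results of these data known, so these shares are no test of them. Of 29 measured genes of other peroxidases and the thioredoxin system, 5 rose and 0 fell, with a median of 0.05. Thioredoxin reductase TXNRD1 rose by 1.02 ± 0.12 (SE, limma adjusted p = 4.1e-05). Sulfiredoxin SRXN1, which repairs overoxidised peroxiredoxins, rose by 0.91 ± 0.16, and SESN2, a stress-induced sestrin, by 0.86 ± 0.15. Thioredoxin TXN rose by 0.35 ± 0.07 and glutathione reductase GSR by 0.34 ± 0.10 (adjusted p = 0.00323 and 0.0435). The peroxidases PRDX1, PRDX2, PRDX4, PRDX6 and GPX4 did not pass, with differences of 0.19 for PRDX1, 0.20 for PRDX2, 0.00 for PRDX4, 0.18 for PRDX6 and −0.01 for GPX4.

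Of 19 measured NRF2 targets 15 rose and 0 fell, with a median of 0.46. This list shares TXNRD1, SRXN1, GSR, TXN and PRDX1 with the previous one. Heme oxygenase HMOX1 rose by 1.52 ± 0.18 (adjusted p = 5.5e-05), the cystine transporter subunit SLC7A11 by 1.59 ± 0.27, the quinone reductase NQO1 by 0.89 ± 0.12 and the glutamate-cysteine ligase subunit GCLC by 0.76 ± 0.13. Over 24 alternatives the count that rose was 13 to 16, and it was 13 without replicate 2 of the control group, the most variable array. Of 12 measured genes listed as transcriptional regulators of the scavenger genes, 1 rose, NFE2L2 itself, by 0.40 ± 0.08 (adjusted p = 0.00427). That count was 2 with trend and robust priors or the replicate block, and 3 with array weights or without replicate 1 of the control group. The NF-kB subunits RELA and NFKB1 differed by 0.17 and 0.12 and did not pass.

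Among 17 measured NF-kB targets 6 rose and 1 fell, with a median of 0.23, and 2 fell without replicate 1 of the control group. IL1A, a cytokine, rose by 2.31 ± 0.22 (adjusted p = 9e-06), and the chemokines CXCL2 and CCL20 by 0.93 ± 0.13 and 1.26 ± 0.21. RELB also rose, by 0.39 ± 0.10. Among those that did not pass were NFKBIA (−0.03), TNFAIP3 (0.23), ICAM1 (0.09) and BIRC3 (−0.71). In shCtrl cells alone 5 of the 17 targets were called higher, against 2.02% of all genes, with CXCL2 and CCL20 (2.60 ± 0.37) among them. Only IL1A was called higher in shAHR1 and in shAHR2 cells, against 0.56% and 0.335% of genes. These counts do not show that the backgrounds differ. Among the 17 targets 0 had a called interaction with shAHR1, and only CCL2 had one with shAHR2 or with the mean of both hairpins. CCL2, a monocyte chemokine, was the 1 that fell on average, and its change depended on the hairpin. With IL4I1 it changed by 0.00 ± 0.24 in shCtrl cells (adjusted p = 0.998), by −2.03 ± 0.24 in shAHR1 and by −2.49 ± 0.24 in shAHR2 cells. Its interaction with the mean of both hairpins was −2.26 ± 0.29 (adjusted p = 0.0129) and with shAHR2 −2.49 ± 0.34 (adjusted p = 0.0165), so the averaged change of −1.51 describes no single background. Among 29 measured enzymes that make superoxide or hydrogen peroxide 4 rose and 3 fell, against 5.36% and 7.21% of all genes, with a median of 0.06. ERO1B, an oxidase of protein folding, rose by 1.23 ± 0.11 (adjusted p = 5e-06) and the sulfhydryl oxidase QSOX1 by 0.55 ± 0.12. The lysyl oxidase relative LOXL1 fell by 0.44 ± 0.09 and the aldehyde oxidase AOX1 fell by 0.59 ± 0.13. Of 16 measured peroxisome assembly genes 1 fell, PEX3, which helps insert peroxisomal membrane proteins. It fell by 0.36 ± 0.09 (adjusted p = 0.0138). A count of 1 in 16 is near the share of all genes that fell.

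All 24 measured cell cycle genes fell with IL4I1 averaged over the hairpins, with a median change of −2.03. The change was −1.52 for MCM3, −1.80 for MCM5 and −1.17 for MCM4, which belong to the replicative helicase, and −2.17 for NUSAP1, a spindle protein. The median of the list, centred per gene, was 0.14 to 1.87 on the 9 arrays without IL4I1 and −1.67 to −0.12 on the 9 with it. With IL4I1 the list median changed by −2.20 with shCtrl, by −1.98 with shAHR1 and by −1.78 with shAHR2, where SOD2 differed by 0.50, 0.27 and 0.45. In these single backgrounds 19, 10 and 0 of the 24 genes were called, all of them lower. Under the hairpins alone, where SOD2 differed by 0.40 and 0.30, the list median was −0.06 and 0.29 with 0 genes called. The part of the cell cycle change in the SOD2 difference with IL4I1 was not tested.

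**Figure D4:**
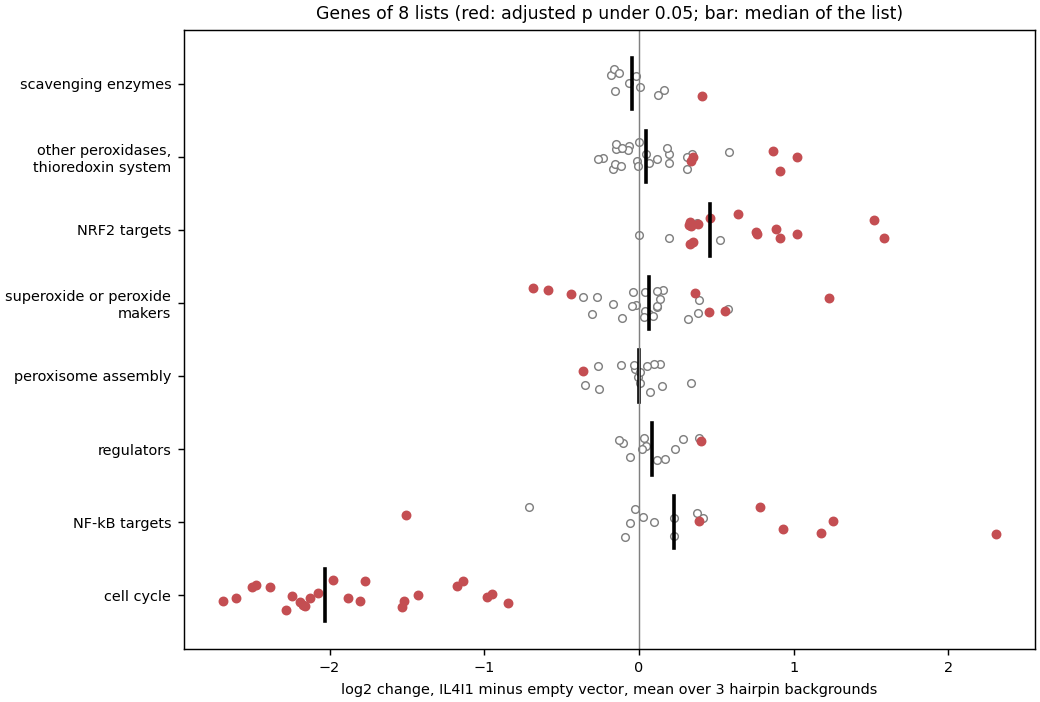
Log2 change with IL4I1 averaged over 3 hairpin backgrounds (horizontal axis) for the genes of 8 lists (vertical axis), with red points for a limma adjusted p under 0.05, open points for the rest and bars for list medians. The scavenging enzymes centre on −0.04 with SOD2 alone in red, the NRF2 targets on 0.46, and all 24 cell cycle genes lie below 0.

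With the hairpins, NNT, the mitochondrial transhydrogenase that supplies NADPH for peroxide removal, rose in each comparison. It rose by 1.05 ± 0.16 under shAHR1 and 1.17 ± 0.16 under shAHR2 without IL4I1 (adjusted p = 0.00888 and 0.0029), and by 1.05 ± 0.16 and 1.31 ± 0.16 with IL4I1 (adjusted p = 0.00291 and 0.00111). It was the only called gene among 29 of the other peroxidases and thioredoxin system there. Of all genes 0.406% and 0.734% were called under shAHR1 and shAHR2 without IL4I1, and 1.55% and 1.26% with it. ERO1A, the paralog of ERO1B, changed under shAHR2 by −0.70 ± 0.15 without IL4I1 and by −0.68 ± 0.15 with it (adjusted p = 0.0365 and 0.0327). LOXL1 rose by 0.67 ± 0.15 under shAHR1 in IL4I1 cells, and LOXL2 fell by 0.89 ± 0.21 under shAHR2 there. CCL2 rose by 1.73 ± 0.24 under shAHR1 without IL4I1 and fell by 1.84 ± 0.24 under shAHR2 with it. In IL4I1 cells IL1B fell by 2.06 ± 0.35 and CXCL8 fell by 1.76 ± 0.36 under shAHR1, and CCL20 fell by 1.60 ± 0.37 under shAHR2. Of 29 enzymes that make superoxide or hydrogen peroxide, 0 and 1 were called under shAHR1 and shAHR2 without IL4I1, and 1 and 2 with it. Of 17 NF-kB targets 1 and 0 were called without IL4I1, and 3 and 2 with it.

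Genes whose values followed a member most closely were read from Pearson's r over the 18 arrays, which share the group structure and carry no test. SOD2 was closest to SOX30 (0.921), CLGN (0.910) and YPEL5 (0.903). CAT was closest to SIKE1 (0.854), STAT6 (0.837) and SLC7A8 (0.824), and PRDX5 to SIAH2 (0.905), ADRM1 (0.898) and CXCL5 (0.894). SOD1 was closest to NDUFB1 (0.877), HERC4 (0.835) and ROCK2 (0.829), and GPX1 to CHCHD3 (0.876), CNRIP1 (0.844) and INKA2 (0.832). For SOD3 they were TNFRSF1A (0.814), PSMA8 (0.766) and COX7B (0.760), and for PRDX3 SNX1 (0.788), FOSL2 (0.775) and ACTL9 (0.770). GPX8 was closest to MGAT4B (0.795), XKR6 (0.790) and NAP1L5 (0.784), and GPX7 to DNAH8 (0.768), BCAM (0.747) and SGCA (0.744). GPX3 was closest to DPP6 (0.761), LMNTD1 (0.759) and AXIN1 (0.745). Between members, r was −0.598 for CAT and SOD2, 0.475 for PRDX5 and SOD2, and −0.674 for PRDX5 and SOD1.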

How the data were processed

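Total RNA was labelled with biotin as cDNA and hybridised to 1-colour Affymetrix arrays. The authors deposited log2 values for each probe set. They used oligo and RMA, per the submitters' processing notes (versions: not given in the sources used here). Because RMA aligns the arrays' distributions after background correction, it would hide a change common to all transcripts. The log2 scale was read from the values (1.11 to 13.4). Of 18913 probe sets, 15598 were paired with 1 symbol, 870 with several and 2445 with none, and the last 2 kinds were not used. The brightest probe set per gene was kept. SOD2 is also covered by a probe set shared with ACAT2, which was left out. Old symbols were replaced through RefSeq in 1173 cases.

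Group means over all 18 arrays were fitted with limma 3.58.1 in R 4.3.3, and a gene was called when its p, adjusted by Benjamini-Hochberg over all 15529 genes, was under 0.05. Errors of changes are standard errors of this fit. The number of arrays limits the precision: the median standard error was 0.22, and the smallest p that exact permutation allows for 3 against 3 arrays is 0.1. Figures were drawn with matplotlib 3.10.9, and the fit was tested on simulated data. The members and gene lists were chosen with earlier results of these data known. Named genes were all members, IL4I1 and AHR, up to 4 called genes of each other list with the lowest adjusted p under averaged IL4I1, up to 2 in each hairpin comparison, and the 3 genes most correlated with each member. A few further genes are named where a list holds few called genes. PRDX1, PRDX2, PRDX4, PRDX6, GPX4, RELA, NFKB1, RELB, NFKBIA, TNFAIP3, ICAM1, BIRC3 and the cell type markers were added after their values were seen. The comparison of the control arrays with all others was also added after the values were seen.

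The labels number the replicates of each group 1 to 3 and name no shared batch. Deviations from the group means were correlated between same-numbered arrays. Of 15 pairs of groups 1 had every correlation over 0.1 (shCtrl and shAHR1 without IL4I1). The median was 0.0398 for same-numbered arrays and −0.0230 for others. The replicate 3 arrays of shCtrl cells with and without IL4I1 and of both hairpins without it correlated pairwise at 0.124 to 0.324. Those of both hairpins with IL4I1 correlated with each other at 0.208. Between these 2 sets replicate 3 ran from −0.0615 to 0.0091. Whether these arrays share a batch was not tested. Alternatives were other priors, only the groups compared, dim genes left out, the mean of probe sets, array weights, centred arrays, the replicate number as a block, and each array left out.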

Additional observations from a re-analysis of the deposited data

How the results depend on the processing

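The averaged IL4I1 rise of SOD2 was called in each of 18 fits without 1 array (0.39 to 0.43), and its rise against shCtrl without IL4I1 was called in all 18 with either hairpin. Changes of single members kept their side of the threshold in 939 cases, became called in 4 and lost the call in 3. With 1 array left out the counts were 2514, 1 and 5. A change of direction was counted as kept where neither fit called the gene. With only the compared groups in the fit, fewer arrays inform the spread, and the members called went to 0 for IL4I1 in shCtrl cells (SOD2 adjusted p = 0.226) and to 0 in both comparisons against shCtrl without IL4I1. Trend and robust priors, and array weights, each gave 1 for IL4I1 in shAHR2 cells (SOD2, adjusted p = 0.0274 and 0.036). Trend and robust priors, and dim genes left out, each gave 2 for IL4I1 with shAHR1 against shCtrl, the added gene being CAT. Without 1 array the members called for IL4I1 in shCtrl cells ran from 0 to 2, and every other comparison kept its count. The replicate block changed no member call. With it, genes called under shAHR1 without IL4I1, the pair of groups that passed the check, went from 63 to 79. The cause of these shifts was not tested beyond the number of arrays.

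Counts over all genes moved more. With only the compared groups they went from 711 to 94 for IL4I1 in shCtrl cells, 204 to 43 in shAHR1 and 95 to 23 in shAHR2 cells, 63 to 1 and 114 to 1 for the hairpins without IL4I1, 240 to 17 and 195 to 39 with it, 704 to 166 and 520 to 66 against shCtrl without IL4I1, and 2 to 0 for the interaction with shAHR2. With the replicate block IL4I1 called 372 in shAHR1 and 235 in shAHR2 cells. Trend and robust priors gave 353 and 198 there, 106 and 174 for the hairpins alone, and 4 and 1 for the interactions. Array weights gave 462 for IL4I1 in shAHR2 cells, 399 for shAHR2 with IL4I1, 116 against 74 for the hairpin difference, and 2 against 3 for the mean interaction. Leaving out dim genes gave 3 and 1 for the interactions. Without 1 array the counts ran from 250 to 1065 for IL4I1 in shCtrl, 34 to 336 in shAHR1 and 22 to 335 in shAHR2 cells, 22 to 74 and 44 to 114 for shAHR1 and shAHR2 alone, 82 to 267 and 75 to 206 for them with IL4I1, 240 to 837 and 219 to 720 against shCtrl without IL4I1, 1588 to 2249 for averaged IL4I1, and 35 to 70 against 74 for the hairpin difference. The interactions ran from 0 to 3 for shAHR1, for shAHR2 and for the mean. Among the lists, peroxisome assembly genes that fell went from 1 to 2 with dim genes left out, with array weights, and without replicate 2 of shAHR1 cells or replicate 3 of IL4I1 cells with shAHR1 or shCtrl.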
